A study of Mus musculus with 30 samples.

Results

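10 genes of adipocytes and lipid droplets were followed in skeletal muscle: ADIPOQ, LEP, PLIN1, CIDEC, PLIN2, PLIN4, PLIN5, PNPLA2, DGAT2 and AQP7. They were chosen by gene symbol, and all 10 were found among the 21073 genes of the table. Extensor digitorum longus (EDL) muscle, a fast muscle of the lower leg, was taken from 30 female SJL/J mice with wild-type genotype and profiled by poly(A) RNA-Seq. EAE-induced mice had received a proteolipid protein (PLP) peptide in complete Freund's adjuvant (CFA) with no pertussis toxin, which gives experimental autoimmune encephalomyelitis (EAE), a relapsing-remitting model of multiple sclerosis. OVA-immunized mice had received ovalbumin in CFA, so that they shared the adjuvant but not the myelin antigen, and unimmunized (Ctrl) mice had received neither. Each of the 3 groups had 5 mice on day 14, the peak of disease, and 5 other mice on day 40, in remission, so that no mouse was sampled on both days. The model is 1 inbred strain and 1 sex, the age of the mice is not given in the sources used here, and the whole muscle was homogenized.

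Lipid droplets are stores of triglyceride under a coat of perilipins. DGAT2 joins the last fatty acid to make triglyceride, PNPLA2 (adipose triglyceride lipase, ATGL) removes the first one, and AQP7 lets the freed glycerol leave the cell. PLIN1 and CIDEC sit on the large droplets of adipocytes, while PLIN2 is found in most cell types. PLIN5 is abundant in muscle and other tissues that burn fat, and PLIN4 is a further perilipin. ADIPOQ (adiponectin) and LEP (leptin) are hormones made by adipocytes. A muscle that has been dissected can carry fat cells between its fibres and along its surface.

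Expression is given as RPKM, the reads on the exons of a gene scaled to their length and to the depth of the library, so that levels can be set side by side between genes. The number of reads assigned to genes was estimated at 17.9M to 31.1M per mouse with a median of 21.4M. All 7 markers of muscle fibres exceeded a mean of 3 RPKM in each group, with a summed level on day 14 of 52578 to 63732 RPKM in EAE-induced mice, 63406 to 76870 in OVA-immunized mice and 70843 to 92138 in unimmunized mice. The 3 markers of brown adipocytes stayed below a mean of 3 RPKM in each group. 4 of the 10 members, ADIPOQ, LEP, PLIN1 and CIDEC, are themselves among the 10 adipocyte markers.

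The members covered a wide range of levels. PNPLA2 was the most abundant, with a median of 102.6 RPKM over the 30 mice and a range of 71.3 to 233.5. It was followed by PLIN4 (median 37.1 RPKM, range 17.0 to 52.8) and PLIN2 (median 28.0, range 22.7 to 40.9), whose ranges overlapped. DGAT2 had a median of 11.7 RPKM (range 8.53 to 26.2) and PLIN5 of 10.9 RPKM (range 5.24 to 29.3), and these ranges overlapped too. ADIPOQ had a median of 7.39 RPKM, AQP7 of 5.38 RPKM, CIDEC of 3.70 RPKM and PLIN1 of 2.60 RPKM, each overlapping with the next. LEP was the lowest, with a median of 0.359 RPKM, which corresponds to about 26 reads in a library. Only PNPLA2 had no overlap with the next gene in this order, and the 4 adipocyte genes were among the 5 lowest.

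**Figure D1:**
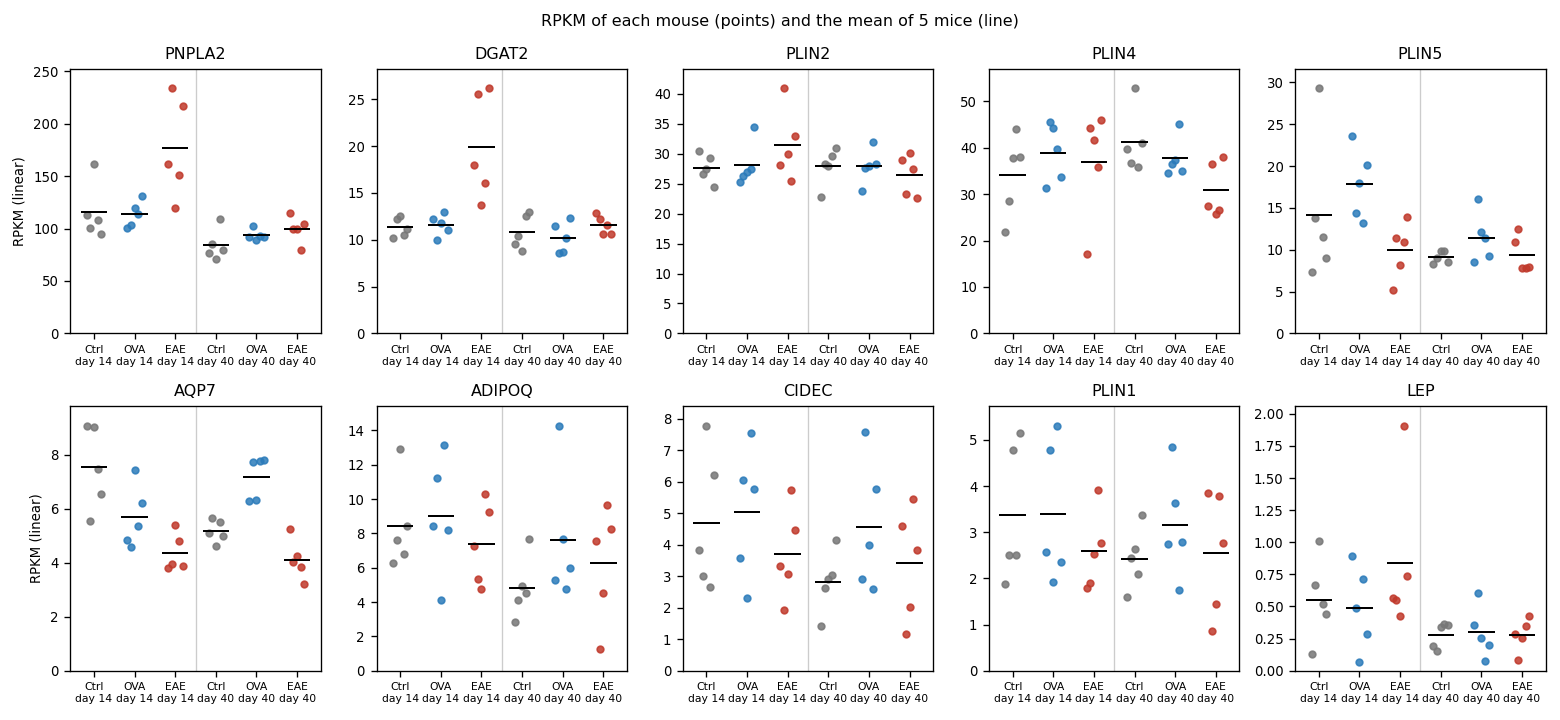
RPKM of the 10 members (1 panel each, linear axis from 0) in the 6 groups; each point is 1 mouse and the line is the mean of 5 mice, in grey for Ctrl, blue for OVA and red for EAE. PNPLA2 and DGAT2 stand higher in EAE-induced mice on day 14 than in the other groups, AQP7 is low in EAE-induced mice on both days, and the adipocyte genes ADIPOQ, CIDEC, PLIN1 and LEP spread widely within every group.

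Differences between groups were tested with limma on log2(RPKM + 0.1), and a gene entered a test when its mean exceeded 3 RPKM in 1 or more of the groups compared. Calls needed a change of more than 1.5-fold together with a p below 0.05 after Benjamini-Hochberg adjustment, and errors of log2 fold changes are standard errors with 5 mice per group. LEP never passed the filter on low levels, and PLIN1 did not pass it in EAE vs. Ctrl on day 40 or between the days in EAE-induced mice. In a whole muscle, fewer cells of a type and less RNA per cell cannot be told apart.

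The start sites of the gene of the droplet lipase, which was higher in EAE-induced mice at the peak of disease, and of the glycerol channel, which was lower, are shown to place the letters that transcription factors of fat metabolism are known to read. Both windows come from RefSeq (GRCm38.p6) and hold 250 bases before and 50 bases after a start site, 5′ to 3′ on the gene's strand, with matches of the searched motifs in capitals. The PNPLA2 window is chr7:141454938-141455237 on the plus strand, and the AQP7 window is chr4:41047913-41048212 on the minus strand.
PNPLA2: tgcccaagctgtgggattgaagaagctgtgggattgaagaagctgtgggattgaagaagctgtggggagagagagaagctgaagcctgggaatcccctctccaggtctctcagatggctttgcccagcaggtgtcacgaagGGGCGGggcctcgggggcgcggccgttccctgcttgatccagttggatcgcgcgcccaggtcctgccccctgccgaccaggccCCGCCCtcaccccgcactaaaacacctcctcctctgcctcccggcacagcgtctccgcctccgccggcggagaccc
AQP7: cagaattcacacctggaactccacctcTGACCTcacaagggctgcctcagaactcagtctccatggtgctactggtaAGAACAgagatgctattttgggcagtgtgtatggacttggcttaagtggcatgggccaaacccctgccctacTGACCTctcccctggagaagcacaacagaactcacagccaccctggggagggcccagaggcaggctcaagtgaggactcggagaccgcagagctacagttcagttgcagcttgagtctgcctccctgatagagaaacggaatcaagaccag

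5 motifs were searched on both strands in 12 windows of 9 members, DGAT2 not among them. The 2 windows of AQP7 overlap, as do the 2 of PLIN5, so that a site can count in both. The half-site of nuclear receptors, AGGTCA, stood in 5 of the 12 windows (5 distinct sites in 3 members), as against 16.3% of all 32851 promoter windows in the table. The AQP7 window shown holds it 2 times, at 223 and 101 bases before the start site and read on the other strand. The direct repeat AGGTCANAGGTCA bound by PPAR receptors, which contains that half-site, was in none of the 12 windows and in 0.0396% of all windows. The half-site of the glucocorticoid receptor, AGAACA, was in both windows of AQP7, at 1 and the same site (19.0% of all windows). The GC box, GGGCGG, was in 5 windows, at 7 distinct sites in 4 members (35.7% of all windows), and the PNPLA2 window holds it at 109 and 26 bases before the start site. The FoxO site GTAAACA was in none of the 12 windows and in 3.65% of all windows. These matches describe the letters of the windows and not sites of binding.

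The droplet lipase and the acyltransferase were higher at the peak of EAE. In EAE-induced mice on day 14 PNPLA2 (chr7:141455188-141460743, GRCm38) was at 119.1, 150.8, 161.1, 216.9 and 233.5 RPKM. The unimmunized mice of that day were at 94.4, 100.2, 108.2, 113.0 and 161.2 RPKM, and the OVA-immunized mice at 100.5, 102.9, 113.4, 119.7 and 130.9 RPKM. The groups overlapped, because 1 unimmunized mouse stood apart from its group and the lowest EAE-induced mouse lay within the range of both control groups. PNPLA2 rose by 0.60 ± 0.18 on the log2 scale against Ctrl (1.51-fold, adjusted p = 0.0128) and by 0.60 ± 0.18 against OVA (1.51-fold, adjusted p = 0.0153). Both fold changes lay just above the threshold of 1.5. They fell under it, with adjusted p-values of at most 0.0486, with median-of-ratios scaling (0.56 and 0.56) or quantile normalization (0.57 and 0.56), and without either of the EAE-induced mice of replicates 2 and 5 (0.48 to 0.51). The same held against Ctrl without the unimmunized mouse of replicate 2, 4 or 5 (0.53 to 0.58), and against OVA without the OVA-immunized mouse of replicate 1 or 2 (0.56 and 0.57).

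DGAT2 (chr7:99153663-99182713) showed the same direction with no overlap. Its levels in EAE-induced mice on day 14 were 13.7, 16.0, 18.0, 25.6 and 26.2 RPKM. They were 10.2, 10.5, 11.1, 12.2 and 12.5 RPKM in unimmunized mice and 10.0, 11.0, 11.8, 12.2 and 13.0 RPKM in OVA-immunized mice. Every EAE-induced mouse was above every control mouse of that day, a lack of overlap that 32.2% of all genes tested against Ctrl and 26.2% of those tested against OVA shared. The gene rose by 0.77 ± 0.16 against Ctrl (1.70-fold, adjusted p = 0.00111) and by 0.73 ± 0.16 against OVA (1.66-fold, adjusted p = 0.00198), and both calls were made when each mouse of the compared groups was left out in turn. Within the EAE-induced group the same 2 mice, of replicates 2 and 5, were highest for PNPLA2 and DGAT2, and the mouse of replicate 3, which also had the deepest library, was lowest for both.

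By day 40 neither gene was called between groups. PNPLA2 ranged from 79.5 to 114.6 RPKM in EAE-induced mice, from 89.0 to 102.4 in OVA-immunized mice and from 71.3 to 108.8 in unimmunized mice. The difference of 0.25 ± 0.11 against Ctrl had an adjusted p of 0.149. DGAT2 ranged from 10.6 to 12.8, from 8.53 to 12.3 and from 8.76 to 13.0 RPKM in the same order, and its difference against Ctrl was 0.11 ± 0.12 (95% interval -0.15 to 0.36).

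Between the days, in different EAE-induced mice, both genes fell, PNPLA2 by 0.79 ± 0.15 (adjusted p = 0.00010) and DGAT2 by 0.73 ± 0.14 (adjusted p = 0.000143), with no overlap between the groups in either gene. The groups did not overlap in 32.0% of all genes tested. 2 of the 8 members tested were called there, as against 21.1% of all genes tested. The change of the EAE vs. Ctrl difference between days was tested in a model of all 30 mice, which called 32.7% of all genes tested and 1 of 9 members, DGAT2. Its log2 difference changed by -0.66 ± 0.20 (adjusted p = 0.00949). The median of all genes tested changed by -0.15 in the same test, and by -0.02 when libraries were scaled by the median of ratios. Relative to these medians DGAT2 changed by -0.51 in both, but with the second scaling its fold change fell below 1.5 (-0.54, adjusted p = 0.0418), and with quantile normalization it was -0.49 with an adjusted p of 0.0518. Without the EAE-induced mouse of replicate 2 or 5 on day 14 the value was -0.56 or -0.55, below 1.5-fold as well. PNPLA2 changed by -0.35 ± 0.21 (adjusted p = 0.178). For the EAE vs. OVA difference 21.8% of all genes tested and 0 of 9 members were called by limma. An unadjusted p below 0.05 was found for 3 members and for 4052 of all 8935 genes tested. DGAT2 changed there by -0.54 ± 0.20 (adjusted p = 0.0397), under the fold threshold. It passed that threshold, at -0.66 to -0.60, without the EAE-induced mouse of replicate 3 or 4 on day 14 or the OVA-immunized mouse of replicate 2 or 3 on day 40, and its adjusted p was 0.129 with median-of-ratios scaling. PNPLA2 changed by -0.52 ± 0.21 (adjusted p = 0.0591), and by -0.65 with an adjusted p of 0.0126 without the EAE-induced mouse of replicate 3 on day 14.

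**Figure D2:**
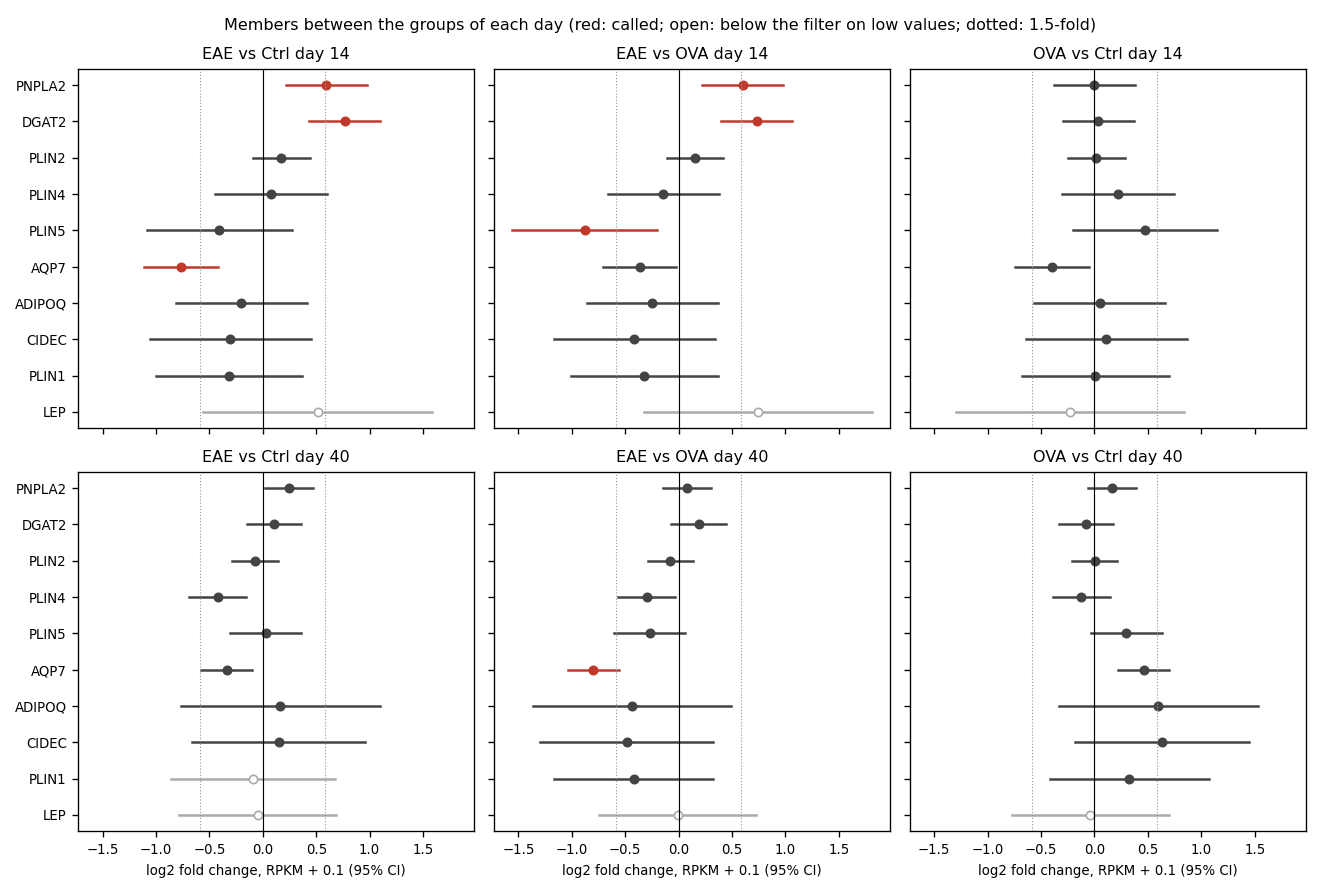
Log2 fold changes of RPKM + 0.1 with 95% confidence intervals for the 10 members in the 6 comparisons between groups of 1 day; red marks a call, open grey symbols mark a member below the filter on low levels (value from the fit without that filter), and dotted lines mark 1.5-fold. The red points are PNPLA2 and DGAT2 at 0.60 to 0.77 on day 14, AQP7 at -0.76 and PLIN5 at -0.88 on day 14, and AQP7 at -0.80 on day 40.

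AQP7 (chr4:41033074-41048237) is the glycerol channel of adipocytes that is also known from capillary endothelium. It was called in EAE-induced mice on both days, but only against Ctrl on day 14 and only against OVA on day 40. On day 14 its levels were 3.80, 3.87, 3.96, 4.79 and 5.41 RPKM in EAE-induced mice. In unimmunized mice they were 5.55, 6.54, 7.49, 9.04 and 9.09 RPKM, and in OVA-immunized mice 4.60, 4.83, 5.35, 6.21 and 7.44 RPKM. The EAE-induced mice did not overlap with the unimmunized mice but did overlap with the OVA-immunized mice, which lay in between. No overlap between EAE and Ctrl was seen in 32.2% of all genes tested on that day, and 26.4% were called. AQP7 fell by 0.76 ± 0.16 against Ctrl (adjusted p = 0.00147) and was not called against OVA, where the difference was -0.37 ± 0.16 (adjusted p = 0.0856). OVA vs. Ctrl gave -0.40 ± 0.16 (adjusted p = 0.433).

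On day 40 AQP7 was at 3.20, 3.84, 4.03, 4.26 and 5.25 RPKM in EAE-induced mice. OVA-immunized mice were at 6.29, 6.31, 7.75, 7.79 and 7.80 RPKM, and unimmunized mice at 4.63, 5.01, 5.12, 5.52 and 5.66 RPKM. Here the OVA-immunized mice were highest, without overlap with either of the other groups. Among all genes tested 5.87% did not overlap between EAE and OVA on that day, and 0.678% between OVA and Ctrl. Against OVA the gene fell by 0.80 ± 0.11 in EAE-induced mice (adjusted p = 0.00891), the second smallest p among 8598 genes tested. It was called when each of these 10 mice was left out in turn, and was 1 of few genes, since 0.209% of all genes tested and 1 of 9 members were called. EAE vs. Ctrl gave -0.34 ± 0.11 (adjusted p = 0.0878). OVA vs. Ctrl gave 0.46 ± 0.11 with an unadjusted p of 0.000902 and an adjusted p of 0.999, and limma called 0% of the 8706 genes tested in that comparison, 272 of which had an unadjusted p below 0.05.

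The OVA vs. Ctrl difference of AQP7 thus had opposite signs on the 2 days. Its change between the days was tested after these values had been seen. The log2 difference changed by 0.86 ± 0.20 (95% interval 0.44 to 1.27, unadjusted p = 0.000216), but the adjusted p over 8848 genes was 0.155. In that test limma called 0% of all genes, and 823 had an unadjusted p below 0.05. The change of the EAE vs. Ctrl difference was 0.42 ± 0.20 (adjusted p = 0.0831), and quantile normalization gave 0.60 with an adjusted p of 0.0215, a call. In unimmunized mice AQP7 was lower on day 40 than on day 14 by 0.51 ± 0.14 on the log2 scale (adjusted p = 0.0122), which is below 1.5-fold, and it passed the fold threshold at -0.60 with median-of-ratios scaling and at -0.63 with quantile normalization. Leaving out the unimmunized mouse of replicate 2 on day 14 gave -0.61, a call too.

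Some endothelial markers fell in EAE-induced mice on day 14 as well. 3 of 8 were called lower against Ctrl, as against 26.4% of all genes called in either direction, and 4 of 8 against OVA, as against 20.3%. The summed level of the 8 was 98.9 to 140.8 RPKM, as against 138 to 172 RPKM for Ctrl and 132 to 191 RPKM for OVA. On day 40, 0 of 8 were called by limma against OVA, 4 of them at an unadjusted p below 0.05, with summed levels of 117 to 163 RPKM for EAE and 143 to 182 RPKM for OVA. None of the 8 markers was below a mean of 3 RPKM in any group. Their part in the AQP7 differences was not tested.

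The perilipins of muscle and other cells gave 1 call. PLIN5 (chr17:56111597-56117606), which ties droplets to mitochondria, was at 5.24, 8.22, 11.0, 11.4 and 13.9 RPKM in EAE-induced mice on day 14. OVA-immunized mice had 13.3, 14.4, 18.0, 20.1 and 23.6 RPKM, and unimmunized mice 7.32, 9.06, 11.6, 13.8 and 29.3 RPKM. The highest EAE-induced mouse lay within the OVA range, and the unimmunized mice spanned nearly the whole range. PLIN5 fell by 0.88 ± 0.32 against OVA (adjusted p = 0.0389), while the difference against Ctrl was -0.41 ± 0.32 (adjusted p = 0.301). The call was lost with no filter on low levels (adjusted p = 0.0622) and when 1 of 6 of the 10 mice was left out: the OVA-immunized mice of replicates 1, 3 and 5 and the EAE-induced mice of replicates 1, 2 and 3. The values without them were -0.95 to -0.67 with adjusted p-values of 0.0505 to 0.102. The day 40 means of PLIN5 were 9.43 ± 2.14 RPKM (SD, n = 5) for EAE, 11.5 ± 2.95 for OVA and 9.10 ± 0.695 for Ctrl, and the groups overlapped.

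Some fibre markers also differed on day 14, as did PLIN5 and some of the fatty acid genes described below. Of 8 markers of slow and oxidative fibres, 3 were called lower in EAE-induced mice on day 14 against Ctrl and the same 3 against OVA. The shares of all genes called in either direction were 26.4% and 20.3%. In direction 2 of the 8 were higher against Ctrl and 1 against OVA, which was MYH2 at 0.41, not called. The 3 called genes are named next. These were the slow-fibre contractile genes MYL3 (-1.67 and -1.75), TNNC1 (-1.02 and -0.93) and MYL2 (-0.79 and -0.76), while MYH7, the slow myosin heavy chain, was at -0.19 and -0.23 and not called. The summed level of the 8 was 1631 to 2201 RPKM in EAE-induced, 2216 to 3139 in OVA-immunized and 2175 to 3249 in unimmunized mice. Of the 7 general fibre markers only 1, PVALB, a calcium buffer of fast fibres, was called, lower at -1.47 and -1.09. Their part in the PLIN5 and fatty acid gene differences was not tested.

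PLIN4 (chr17:56100587-56109948) lies next to PLIN5 on chromosome 17, with 1648 bases between the 2 genes. It ranged on day 14 from 17.0 to 45.9 RPKM in EAE-induced mice, from 31.4 to 45.5 in OVA-immunized mice and from 21.9 to 44.1 in unimmunized mice. The ranges overlapped, and the difference against Ctrl was 0.08 ± 0.25 (95% interval -0.45 to 0.60). On day 40 the levels were 25.7, 26.6, 27.5, 36.4 and 38.0 RPKM in EAE-induced mice and 35.9, 36.7, 39.8, 41.1 and 52.8 RPKM in unimmunized mice. The lower 3 EAE-induced mice were below every unimmunized mouse, and the difference of -0.42 ± 0.13 had an adjusted p of 0.0688. The change of this difference between days was -0.50 ± 0.29 (adjusted p = 0.155), and without the EAE-induced mouse of replicate 1 on day 14, the lowest of all 30, it was -0.76 with an adjusted p of 0.00729.

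PLIN2 (chr4:86626910-86670217), the coat protein of droplets in most cells, was the most even member. Its group means lay between 26.5 and 31.4 RPKM. The largest difference was the 0.17 ± 0.12 of EAE vs. Ctrl on day 14 among the comparisons within a day, with a 95% interval of -0.09 to 0.44 and an adjusted p of 0.264. The highest mouse of all, at 40.9 RPKM, was the EAE-induced mouse of replicate 2 on day 14, which was also the highest for PNPLA2.

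The adipocyte genes among the members varied widely within groups, and none was called between the groups of a day. ADIPOQ (chr16:23146536-23157968) was at 4.77, 5.32, 7.25, 9.26 and 10.3 RPKM in EAE-induced mice on day 14. The levels were 6.30, 6.78, 7.61, 8.46 and 12.9 RPKM in unimmunized mice and 4.09, 8.21, 8.42, 11.3 and 13.2 RPKM in OVA-immunized mice. All 3 groups overlapped, and the difference against Ctrl was -0.20 ± 0.29 (95% interval -0.81 to 0.41, adjusted p = 0.585). On day 40 the levels were 1.27, 4.53, 7.53, 8.28 and 9.66 RPKM in EAE-induced mice, 4.76, 5.28, 6.01, 7.70 and 14.3 RPKM in OVA-immunized mice and 2.84, 4.12, 4.53, 4.94 and 7.68 RPKM in unimmunized mice. The lowest and the highest mouse of all 30 were both among the immunized mice of that day. EAE vs. Ctrl gave 0.16 ± 0.44 (95% interval -0.77 to 1.09). EAE vs. OVA gave -0.44 ± 0.44 and turned to 0.05 without the EAE-induced mouse of replicate 2.

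CIDEC (chr6:113424634-113435760), which fuses droplets into larger ones, had group means from 2.83 to 5.05 RPKM. Its differences between EAE-induced mice and either control group were -0.49 to 0.15, with adjusted p-values from 0.372 to 0.817. PLIN1 (chr7:79721164-79732904), which guards the adipocyte droplet against lipases, had group means from 2.43 to 3.39 RPKM and differences of -0.42 to -0.09. LEP (chr6:29060221-29073876) was below 1 RPKM in 28 of 30 mice. The exceptions were 1 unimmunized mouse at 1.01 and 1 EAE-induced mouse at 1.91 RPKM, both on day 14. Without the filter LEP was lower on day 40 than on day 14 in EAE-induced mice by 1.21 ± 0.45 on the log2 scale (adjusted p = 0.0390), and an exact two-sided permutation test of the 5 and 5 mice gave p = 0.0159. The adjusted p was 0.0569 to 0.136 without the EAE-induced mouse of replicate 4 or 5 on day 14 or of replicate 1, 2 or 3 on day 40. With a pseudocount of 1 the difference was -0.48, under 1.5-fold, and with a pseudocount of 0.01 it was -1.51 with an adjusted p of 0.0541. The LEP means of the other groups were lower on day 40 too, at 0.280 against 0.553 RPKM in Ctrl and 0.298 against 0.488 RPKM in OVA. By limma without the filter, the EAE vs. Ctrl difference of LEP changed between days by -0.56 (adjusted p = 0.557). The EAE vs. OVA difference changed by -0.75 (adjusted p = 0.465).

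In unimmunized mice ADIPOQ was lower on day 40 than on day 14, at a mean of 4.82 ± 1.78 against 8.42 ± 2.66 RPKM. The difference of -0.81 ± 0.40 had an adjusted p of 0.111, and in a fit with these 2 groups alone it was 0.0497. Among unimmunized mice 9.37% of all genes tested differed between the days, and 0 of 9 members were called by limma. An unadjusted p below 0.05 was found for 4010 of all 8788 genes tested and for 2 members. PNPLA2 was 1 of these 2 members at -0.44 ± 0.15 (adjusted p = 0.0297), which is under 1.5-fold. In OVA-immunized mice 3.97% of all genes tested and 0 of 9 members were called. By limma 2 members had an unadjusted p below 0.05, as did 2124 of all 8648 genes tested.

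Set against all genes, the members were not a group that moved together. 3 of 9 members tested were called in EAE vs. Ctrl on day 14, as against 26.4% of all genes tested, and 3 of 9 in EAE vs. OVA, as against 20.3%. Their median log2 fold changes were -0.20 and -0.25, and those of all genes were 0.11 and 0.11. In OVA vs. Ctrl on day 14 limma called 0 of 9 members and 0.142% of all genes. There 1 member, AQP7, had an unadjusted p below 0.05, as did 821 of all 8471 genes tested. In EAE vs. Ctrl on day 40 limma called 0 of 8 members and 0.46% of all genes. There 3 members had an unadjusted p below 0.05, as did 2423 of all 8691 genes tested. The comparisons of EAE with Ctrl and with OVA share the EAE-induced mice.

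Members that vary with ADIPOQ from mouse to mouse were sought by correlation over the 30 mice, after subtracting the group means. CIDEC had a Pearson r of 0.88 and a Spearman rho of 0.89, PLIN1 an r of 0.86 and a rho of 0.84, and LEP an r of 0.74 and a rho of 0.72. The permutation p of each r was 1e-05, the smallest that 100000 shuffles within groups can give, and 3e-05 after adjustment over 9 relations. The adjusted permutation p of each rho was at most 9e-05. Without the 2 mice farthest from the median ADIPOQ, an EAE-induced and an unimmunized mouse of day 40, r was 0.86, 0.82 and 0.76. It was 0.86, 0.78 and 0.81 within day 14, and 0.91, 0.93 and 0.80 within day 40.

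The other 6 members showed no such relation. Their r with ADIPOQ was 0.10 for PLIN5, 0.09 for PNPLA2, 0.07 for PLIN2, 0.00 for DGAT2, -0.08 for PLIN4 and -0.18 for AQP7, with rho from -0.23 to 0.11. The adjusted permutation p was at least 0.843 for r and at least 0.572 for rho. Mice with more ADIPOQ had more CIDEC, PLIN1 and LEP, while no relation was detected for PLIN2, PLIN4, PLIN5, PNPLA2, DGAT2 or AQP7.

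**Figure D3:**
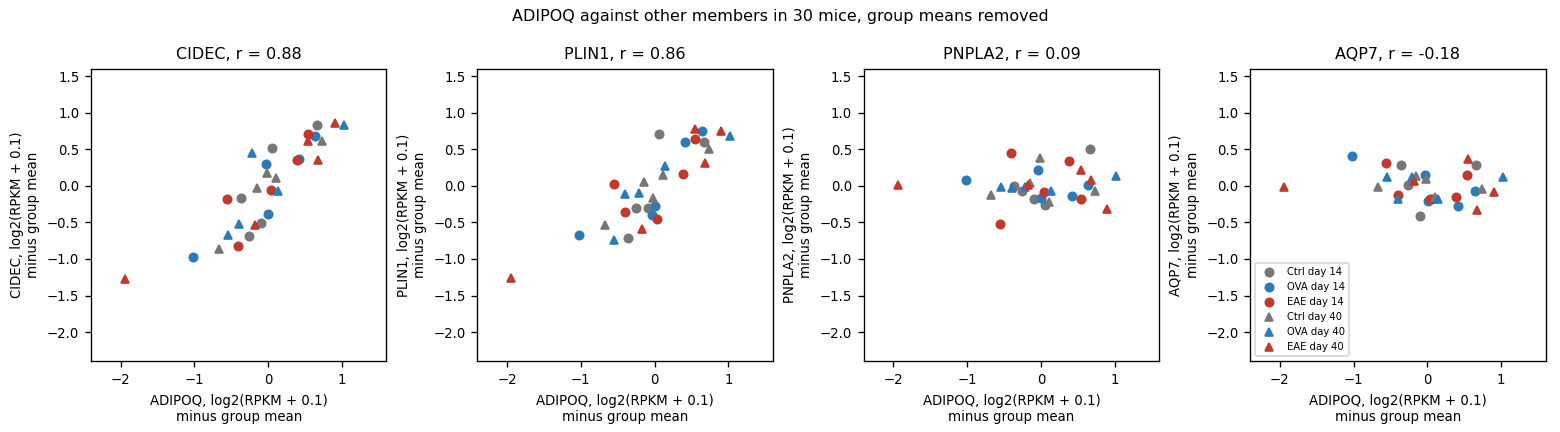
ADIPOQ (x axis) against CIDEC, PLIN1, PNPLA2 and AQP7 (y axes) in 30 mice, all as log2(RPKM + 0.1) minus the group mean; circles are day 14, triangles are day 40, and grey, blue and red are Ctrl, OVA and EAE. CIDEC (r = 0.88) and PLIN1 (r = 0.86) rise with ADIPOQ along a line, PNPLA2 (r = 0.09) and AQP7 (r = -0.18) do not, and the point at the far left is the EAE-induced mouse with 1.27 RPKM of ADIPOQ.

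The genes most like 4 of the members over the 30 mice, group differences included, were sought among the 9049 genes whose mean exceeded 3 RPKM in any group. For ADIPOQ they were CIDEC (r = 0.89), PLIN1 (r = 0.86), CFD (adipsin, r = 0.82), RETN (resistin, r = 0.75) and MGST1 (r = 0.74), so that 4 of the 5 are adipocyte markers. For PLIN5 they were MLYCD (malonyl-CoA decarboxylase, r = 0.88), RETSAT (r = 0.86), SLC25A34 (r = 0.85), ANGPTL4 (an inhibitor of lipoprotein lipase, r = 0.77) and CAR14 (r = 0.75). For PLIN4 they were TNS1 (r = 0.83), UBR2 (r = 0.81), NOS1 (r = 0.80), CMYA5 (r = 0.80) and ITPKB (r = 0.79). For PLIN2 they were ABI3 (r = 0.75), AGPAT9 (the acyltransferase Gpat3, r = 0.74), HMOX1 (heme oxygenase, r = 0.71), PPP1R27 (r = 0.70) and SDC4 (r = 0.69). No gene was among the 5 of more than 1 member.

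Few of the other genes of triglyceride and droplet metabolism were called at the peak of EAE. Of 21 such genes, none a member, 18 were tested in EAE vs. Ctrl on day 14 and 2 were called, as against 26.4% of all genes. AGPAT3, which adds the second fatty acid to the glycerol backbone, rose by 1.06 ± 0.18 (adjusted p = 0.000291), from 28.7 ± 7.76 to 60.2 ± 15.6 RPKM. MGLL, which removes the last fatty acid, fell by 0.90 ± 0.15, from 35.5 ± 5.68 to 18.9 ± 2.29 RPKM. The same 2 genes were called against OVA, at 0.79 and -0.98. The median of the 18 genes against Ctrl was -0.08, as against 0.11 for all genes. By limma 9 of the 18 had an unadjusted p below 0.05 against Ctrl, as did 4855 of all 8771 genes tested. Against OVA 8 of the 18 did, as did 4155 of all 8674. On day 40, 0 of 18 were called by limma against Ctrl or OVA, with 4 and 3 at an unadjusted p below 0.05.

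Of 24 genes of fatty acid uptake and oxidation 23 were tested against Ctrl on day 14 and 5 were called, each lower, as against 26.4% of all genes called in either direction. 15 of the 23 had a negative and 8 a positive difference. The largest falls were those of LPL (lipoprotein lipase, which frees fatty acids at the capillary wall, -1.03 ± 0.16), FABP3 (the fatty acid binding protein of muscle, -0.98 ± 0.33) and SLC27A1 (a fatty acid transporter, -0.70 ± 0.17). Against OVA 8 of 23 were called, each lower, as against 20.3% of all genes, led by ANGPTL4 at -1.54 ± 0.40, LPL at -1.11 ± 0.16 and FABP3 at -0.93 ± 0.34. The medians were -0.20 and -0.49. The mean of LPL on day 14 was 93.8 ± 27.8 RPKM (SD, n = 5) for EAE, 187 ± 29.0 for Ctrl and 197 ± 19.5 for OVA. On day 40 UCP3, an uncoupling protein of muscle mitochondria, was called against Ctrl at -0.73 ± 0.15, where 0.46% of all genes were called. By limma 4 of the 23 had an unadjusted p below 0.05 there. The day 40 means of UCP3 were 31.0 RPKM for EAE, 38.4 for OVA and 51.4 for Ctrl, and the Ctrl mean was 28.1 RPKM on day 14. Against OVA on day 40, 0 of 23 were called by limma, with 3 at an unadjusted p below 0.05.

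Of 12 genes of lipogenesis 9 were tested against Ctrl on day 14, and 3 were called, 2 higher and 1 lower, as against 26.4% of all genes. ACACB, whose product restrains fatty acid entry into mitochondria, rose by 0.77 ± 0.22, ME1, which supplies NADPH, rose by 0.71 ± 0.11, and SCD1, the desaturase, fell by 0.80 ± 0.24. Against OVA ME1 was called at 0.86 and SCD1 at -0.78, where 20.3% of all genes were called. The median of the list was -0.25 against Ctrl. On day 40 limma called 0 of the 9 against either control group, with 2 at an unadjusted p below 0.05 in each. In OVA vs. Ctrl limma called 0 genes of these 3 lists on either day, and 7 genes on day 14 and 5 on day 40 had an unadjusted p below 0.05.

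**Figure D4:**
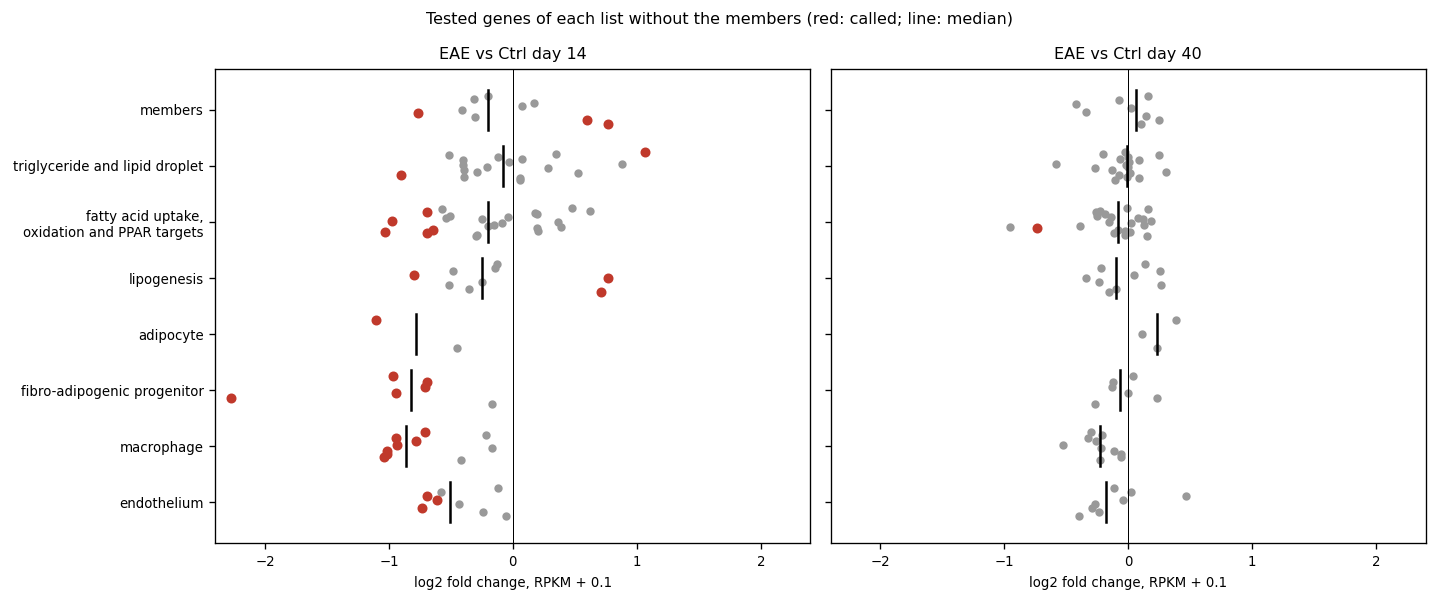
Log2 fold changes of RPKM + 0.1 of the members and of the tested genes of 7 lists in EAE vs. Ctrl on day 14 (left) and day 40 (right); each point is 1 gene, red marks a call and the line is the median of the list. On day 14 called genes of droplet metabolism and lipogenesis lie on both sides of 0 and those of fatty acid uptake, progenitors, macrophages and endothelium lie below it, and on day 40 the only red point is UCP3 at -0.73.

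Markers of other cells differed between groups on day 14. 7 of 10 macrophage markers and 5 of 6 tested markers of fibro-adipogenic progenitors (7 listed), the cells from which fat in muscle arises, were called lower against Ctrl, and 7 and 4 against OVA. The shares of all genes called in either direction were 26.4% against Ctrl and 20.3% against OVA. The summed macrophage level was 157.4 to 354.9 RPKM in EAE-induced and 336.8 to 505.2 in unimmunized mice, and that of the progenitors 327.8 to 529.3 and 739.8 to 834.3 RPKM. All 4 erythroid markers tested were called lower against Ctrl and against OVA, with sums of 26.4 to 188 as against 189 to 684 RPKM in Ctrl. The 5 neutrophil markers were called higher than in Ctrl both in EAE-induced mice, with sums of 214.7 to 400.6 RPKM, and in OVA-immunized mice, with sums of 65.2 to 229 RPKM, as against 3.67 to 10.1 RPKM in Ctrl. Of all genes tested 0.142% were called in OVA vs. Ctrl. In EAE vs. OVA 1 of the 5 neutrophil markers, S100A8 (2.31), was called higher and 0 were called lower by limma. In direction 2 of the 5 were higher and 3 lower, with a median of -0.86. The lower ones were RETNLG (-1.05), S100A9 (-0.96) and NGP (-0.86), and 3 of the 5 had an unadjusted p below 0.05. Of the adipocyte markers that are no member, 2 of 6 were tested. CFD fell by 1.10 ± 0.27 against Ctrl, from 63.9 ± 13.3 to 30.6 ± 9.24 RPKM, and was called at -1.05 ± 0.27 against OVA. FABP4, which endothelium also makes, was at -0.45 ± 0.17 against Ctrl and not called, and fell by 0.60 ± 0.17 against OVA. The summed adipocyte list was 308.7 to 490.8 RPKM in EAE-induced and 463.5 to 693.9 in unimmunized mice, most of it FABP4. No summed list was at 0 in any mouse. Their part in the differences of PNPLA2, DGAT2 and AQP7 was not tested.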

How the data were processed

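EDL muscle of 30 mice was analysed by poly(A) RNA-Seq. The authors aligned the reads to mm10 with Subread, counted them on RefSeq genes with featureCounts and computed RPKM. The deposited values are log2(RPKM + 1), with 0.0001 for a gene without a read (25.8% of values). This scale was read from the values, which were converted back, and RPKM × exon length in kb then summed to 1.114M to 1.144M per mouse, near the 1M that RPKM implies. Reads per mouse were estimated from the size of a single read. As read counts were not used here, EdgeR, which the authors used, was replaced by limma 3.58.1 in R 4.3.3 (lmFit and eBayes with trend) on log2(RPKM + 0.1). The 15 mice of a day were fitted together, and all 30 for comparisons between days. Genes above a mean of 3 RPKM in at least 1 compared group were tested. Correlations used 100000 shuffles within groups. The model was tested on simulated data.

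All 10 members were described in every comparison. From each list the 3 called genes with the largest change in each direction were named, and for 4 members the 5 genes with the highest r. The members, the 12 lists (119 of 120 genes found) and the tests were chosen with earlier results of these data known, and the OVA vs. Ctrl change between days after AQP7 had been seen. Coordinates are of GRCm38, the assembly of mm10. Alternatives were pseudocounts of 1 and 0.01, no filter on low levels, median-of-ratios scaling, quantile normalization, fits of the compared groups or of all mice, a replicate block, no fold threshold and leaving out each mouse. Counting error is small at these depths except for LEP.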

Additional observations from a re-analysis of the deposited data

Results flagged for a closer look

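Of 60 sets of 5 mice (10 genes in 6 groups), 5 held a mouse that stood apart from its group by Dixon's limit of 0.71 for the gap over the range, and chance gives about 1 in 20. In unimmunized mice on day 14 the mouse of replicate 3 had 161.2 RPKM of PNPLA2, and the next highest had 113.0. In OVA-immunized mice on day 40 that of replicate 2 had 102.4 RPKM of PNPLA2, and the next had 92.6. PLIN2 was at 34.4 RPKM in the OVA-immunized mouse of replicate 5 on day 14, with the next at 27.4. PLIN4 was at 45.0 RPKM in the OVA-immunized mouse of replicate 4 on day 40, with the next at 37.4. LEP was at 1.91 RPKM in the EAE-induced mouse of replicate 4 on day 14, with the next at 0.740.

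The difference between EAE-induced and control mice changed between days for DGAT2, by limma's interaction test. The log2 difference changed by -0.66 against Ctrl (SE 0.20, adjusted p = 0.00949) and by -0.54 against OVA (SE 0.20, adjusted p = 0.0397), and the second is under 1.5-fold. Neither was a call with median-of-ratios scaling (-0.54 and -0.43, limma adjusted p = 0.0418 and 0.129). The same held with quantile normalization (-0.49 and -0.38, adjusted p = 0.0518 and 0.161).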

How the results depend on the processing

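No called member changed direction under any alternative. Log2 differences of members that were called under neither setting changed sign 101 times when a mouse was left out and 21 times under other alternatives, from a size of at most 0.45, and were not counted as reversed; ADIPOQ in EAE vs. OVA on day 40 is one. Among member values 33 calls were lost and 14 gained, and the cause was not tested. The replicate numbers did not pair the mice (median correlation of deviations 0.020 over 75 same-numbered pairs, range -0.715 to 0.712). The replicate block gave 0 called members in EAE vs. OVA on day 40 (AQP7 at -0.80, adjusted p = 0.0801) and 0 called genes there, 1 called gene in EAE vs. Ctrl on day 40, and an adjusted p of 0.0509 for LEP between the days in EAE.

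Members called were 1 (AQP7) with median-of-ratios scaling or quantile normalization, 1 (ADIPOQ) with only the compared groups in the fit and 2 (AQP7 and PNPLA2) with no fold threshold between the days in Ctrl. They were 0 with median-of-ratios scaling in the change of EAE vs. Ctrl and 1 with no fold threshold in that of EAE vs. OVA. Leaving out 1 mouse gave 1 to 3 in EAE vs. OVA on day 14, 0 to 1 between the days in Ctrl, 0 to 2 in the change of EAE vs. Ctrl and 0 to 2 in that of EAE vs. OVA.

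Among all genes, no filter on low levels called 3578 in EAE vs. Ctrl and 37 in OVA vs. Ctrl on day 14, 3 in EAE vs. OVA on day 40, and 1406 (Ctrl), 845 (OVA) and 3099 (EAE) between the days. No fold threshold called 4195 in EAE vs. Ctrl and 3390 in EAE vs. OVA on day 14, 229 and 55 on day 40, 2766, 806 and 4270 between the days, and 3138 in the change of EAE vs. OVA. With only the compared groups in the fit the counts were 7 in OVA vs. Ctrl on day 14, 6 in EAE vs. Ctrl and 1 in OVA vs. Ctrl on day 40, and 544 between the days in Ctrl. All 30 mice in 1 fit called 36 in OVA vs. Ctrl on day 14, and 0 in EAE vs. Ctrl and 1 in EAE vs. OVA on day 40. In EAE vs. Ctrl and EAE vs. OVA on day 40 a pseudocount of 1 called 15 and 8, median-of-ratios scaling 22 and 2, and quantile normalization 8 and 1. In the change of OVA vs. Ctrl these 3 settings called 7, 5 and 7. Leaving out 1 mouse gave 5 to 11 in OVA vs. Ctrl on day 14, 1 to 202 in EAE vs. Ctrl, 2 to 22 in EAE vs. OVA and 0 to 1 in OVA vs. Ctrl on day 40, 309 to 1295 (Ctrl) and 218 to 461 (OVA) between the days, and 0 to 3 in the change of OVA vs. Ctrl. The highest count of EAE vs. Ctrl on day 40 was without the unimmunized mouse of replicate 4 and the lowest without the EAE-induced mouse of replicate 3.

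The share of higher calls moved with scaling. Between the days it was 53.6% in Ctrl, 30.3% with median-of-ratios scaling and 42.0% with quantile normalization, 56.9% and 44.1% (median-of-ratios) in OVA, and 39.7% and 52.6% (quantile) in EAE. It was 35.9% in the change of EAE vs. Ctrl and 37.4% in that of EAE vs. OVA, as against 51.3% and 53.1% with median-of-ratios scaling and 52.5% and 55.0% with quantile normalization. On day 40 it was 15.0% in EAE vs. Ctrl, then 45.5% and 62.5%, of only 40, 22 and 8 called genes. In EAE vs. OVA it was 16.7%, then 0% under both, of only 18, 2 and 1 called genes. In OVA vs. Ctrl on day 14 it was 66.7% and 50% (quantile), of 12 and 18 called genes.

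Depth limits LEP, with an estimated 4 reads in its lowest and 26 in its median library. Each correlation with ADIPOQ kept its side of the threshold with a pseudocount of 1 and with median-of-ratios scaling.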

Other observations

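CIDEA, a droplet protein related to CIDEC and a marker of brown adipocytes, was low in this muscle and is named here after its values were seen. It was at 1.05 to 4.21 RPKM in EAE-induced mice on day 14 with a median of 3.28, as against 0.346 to 1.16 in unimmunized and 0.464 to 1.05 in OVA-immunized mice of that day. On day 40 it was at 0.409 to 1.18 RPKM in EAE-induced mice, with a median of 0.448. UCP1, the uncoupling protein of brown fat, was at 0.166 to 1.13 RPKM in EAE-induced mice on day 14, and at 0 to 0.136 and 0.0268 to 0.126 RPKM in unimmunized and OVA-immunized mice. On day 40 it was at 0.186 to 0.264 RPKM in EAE-induced mice, at 0 to 0.137 in unimmunized mice and at 0 to 0.153 in OVA-immunized mice. Both genes were under a mean of 3 RPKM in each group and were not tested.

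Between the days in EAE-induced mice the other genes of triglyceride and fatty acid metabolism moved in both directions. AGPAT3 (-1.18 ± 0.15), AGPAT9 (-0.68 ± 0.19) and AUP1 (-0.63 ± 0.07) fell among the 18 tested genes of droplet metabolism. LPL rose by 1.02 ± 0.13 and PPARA, a receptor for fatty acids, by 0.61 ± 0.17, while ACOT2 (-0.91 ± 0.32) and ACADL (-0.70 ± 0.13), enzymes of mitochondrial fatty acid metabolism, fell. SCD1 rose by 1.23 ± 0.27 and THRSP by 0.62 ± 0.16, and ACACB (-0.96 ± 0.18) and ME1 (-0.62 ± 0.11) fell. All 11 passed limma's adjusted p of 0.05. They were the 4 higher and 7 lower calls among the 49 genes tested in the droplet, fatty acid and lipogenesis lists. Of all genes tested 21.1% were called between these days.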
